A study of Homo sapiens with 15 samples.

Results

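The MYC, MAX and MXD network is a set of transcription factors that meet through a basic helix-loop-helix leucine zipper. MYC and its relative MYCL pair with MAX, bind E-boxes, of which CACGTG is the best known form, and activate genes of ribosome production, metabolism and cell division. MXD1, MXD3, MXD4, MXI1, MNT and MGA also pair with MAX and repress genes at the same kind of site, while MLX is a second partner that MXD1, MXD4 and MNT can take and that serves the glucose-responsive factors MLXIP and MLXIPL. In squamous epithelium, MYC is tied to the proliferating basal layer, and MXD1 is known to rise when keratinocytes differentiate. The members were chosen by gene symbol, and all 10 (MYC, MYCL, MAX, MXD1, MXD3, MXD4, MXI1, MNT, MGA and MLX) were found among the 60649 genes of the deposited counts. Each of the 10 passed the filter on low counts, as did 14061 genes in all.

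The study measured mRNA by RNA-seq in HSC-5, an established human cell line whose label gives skin squamous cell carcinoma as the tissue, after CRISPR sgRNAs were used to deplete the arginine methyltransferase PRMT5 or its cofactor WDR77. It asked which genes depend on either protein. There were 5 conditions with 3 biological replicates each, 15 libraries in all. The sgNeg cells were the control, which the study calls an empty vector, and were labelled WT. The sgPRMT5-1 and sgPRMT5-2 cells were labelled PRMT5 Knockout, and the sgWDR77-1 and sgWDR77-2 cells WDR77 Knockout. All 5 conditions had Neomycin as their treatment label. The labels do not state whether a condition was grown from 1 clone.

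Libraries held 5146711 to 6730428 reads on genes, with a median of 5806938. Replicates were compared over all genes by the chi-square per degree of freedom of their counts, which would be near 1 with counting noise alone and ran from 1.55 to 17.7 over the 15 replicate pairs. The sgPRMT5-2 replicates were the most alike, at 1.57, 2.44 and 1.55. A library was taken to stand apart when both its values were over 2 times that of the other pair. Replicate 3 of sgPRMT5-1 did so, at 6.04 and 5.38 against 2.02. So did replicate 1 of sgWDR77-1, at 12.5 and 17.7 against 3.21, and replicate 1 of sgWDR77-2, at 4.97 and 6.78 against 2.03. The sgNeg replicates were also far from one another. Replicate 2 was at 9.16 and 6.44 against 3.86 between the other pair, larger values than those of sgPRMT5-1 replicate 3, but only the first was over 2 times the third, so it was kept. Results that rest on these 3 libraries are given with all libraries and with the 12 that remained, an alternative chosen after seeing the data. Full separation of 3 libraries from the 3 of sgNeg was common: it held for 24.1% of all genes tested with sgPRMT5-1, 50.4% with sgPRMT5-2, 24.1% with sgWDR77-1 and 25.2% with sgWDR77-2.

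Squamous markers were plentiful, with a summed level over 6 genes of 1722 to 2641 CPM, counts scaled to a common library total with TMM factors, led by KRT17 at 690 to 1453 CPM. TP63, the squamous lineage factor, was at 311 to 528 CPM and SFN at 451 to 710 CPM. KRT14 was nearly absent, with at most 4 counts in any library. The basal keratin KRT5 ranged from 33.8 to 817 CPM and fell with each of the 4 sgRNAs, with log2 fold changes of -1.27, -3.53, -4.02 and -2.82 (both sgRNAs of PRMT5, then both of WDR77). KRT6A fell likewise, by log2 fold changes of -1.63, -3.65, -3.71 and -2.14. The other squamous markers that were tested did not pass as lower with any sgRNA. SFN rose with sgPRMT5-1 (0.39), sgPRMT5-2 (0.45) and sgWDR77-2 (0.34), KRT17 rose with sgWDR77-2 (0.83), and TP63 passed with no sgRNA. With sgPRMT5-2 the log2 fold change of KRT17 was -0.16 and did not pass. KRT14 was too low to test. Its means were 0.632 CPM in sgNeg and 0.494, 0.217, 0.369 and 0.490 CPM with the 4 sgRNAs in the same order. Markers of other cells were low: summed levels were 6.53 to 16.2 CPM for 5 fibroblast genes, led by COL1A1, and at most 0.740 CPM for 4 immune genes, led by CD79A. They were 12.7 to 36.1 CPM for 3 endothelial genes, led by CDH5, and 2.55 to 7.48 CPM for 3 melanocyte genes, led by PMEL. Among these, COL1A1 (-0.65), VWF (-2.28) and PMEL (-1.41) fell with sgPRMT5-2 and CDH5 rose with sgWDR77-1 (0.80), and what part they had in other results was not tested. The defining markers COL1A2, CD3E and TYR had a count of 0 in all 15 libraries, and PECAM1 had at most 3 counts.

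PRMT5, one targeted gene, was at 59.1, 49.6 and 67.8 CPM in sgNeg. It was at 33.0, 35.8 and 41.4 CPM with sgPRMT5-1 and at 44.2, 44.5 and 39.4 CPM with sgPRMT5-2. All 6 of these libraries lay under the lowest sgNeg library, and PRMT5 fell by 0.67 (adjusted p = 0.00570) and by 0.45 (adjusted p = 0.0114) on the log2 scale. In the sgWDR77-1 and sgWDR77-2 libraries PRMT5 was at 54.5, 64.2 and 54.4 CPM and at 79.9, 65.2 and 64.4 CPM, and neither comparison with sgNeg passed the test. WDR77 was at 125, 114 and 119 CPM in sgNeg. It was at 30.8, 52.0 and 53.3 CPM with sgWDR77-1 and at 26.6, 24.9 and 22.0 CPM with sgWDR77-2, far under every other library. It fell by 1.43 (adjusted p = 2.01e-06) and by 2.29 (adjusted p = 6.89e-09). Levels of WDR77 were 134, 119 and 156 CPM with sgPRMT5-1 and 126, 130 and 119 CPM with sgPRMT5-2. These are mRNA levels, and an edited gene can still be transcribed.

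Between members, levels were compared per kilobase of merged exons. MYC led in sgNeg at 55.3 ± 2.90 CPM per kb (SD, n = 3). MLX followed at 13.8 ± 0.682, MAX at 10.8 ± 0.711, MXI1 at 7.64 ± 0.163, MGA at 5.10 ± 0.679 and MXD1 at 3.73 ± 0.0920 CPM per kb. MNT at 2.18 ± 0.197, MXD4 at 1.79 ± 0.761, MXD3 at 1.33 ± 0.443 and MYCL at 0.829 ± 0.359 CPM per kb closed the order, and each of these last neighbours overlapped within its spread. The activator MYC was thus far more abundant as mRNA than its partner MAX or any repressor in sgNeg. With sgPRMT5-2, MXD1 at 5.08 ± 0.453 and MXI1 at 4.79 ± 0.344 CPM per kb lay in the other order, within their spread of each other. MXD1 also lay above MGA there, at 4.28 ± 0.25 CPM per kb, the reverse of their order in sgNeg. The order depends on the length used: with the canonical transcript, a choice made after seeing the data, MAX at 33.7 lay above MLX at 24.9 CPM per kb in sgNeg, and MXD3 at 5.90 lay above MXD1 at 4.27. With that length MXI1 at 8.16 and MGA at 7.04 also stayed above MXD1 at 5.81 CPM per kb with sgPRMT5-2.

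The genes are scattered over the genome (GENCODE v44, GRCh38, the build to which the deposited reads were aligned). MYC (ENSG00000136997) is on chromosome 8. MYCL (ENSG00000116990) is at chr1:39895428-39902256 and MAX (ENSG00000125952) at chr14:65006174-65102695. MLX (ENSG00000108788) at chr17:42567072-42573239 and MNT (ENSG00000070444) at chr17:2384073-2401104 share a chromosome. MXD1 (ENSG00000059728) is at chr2:69897688-69942945, MXD3 (ENSG00000213347) at chr5:177301461-177312757 and MXD4 (ENSG00000123933) at chr4:2247432-2262109. MXI1 (ENSG00000119950) is at chr10:110207605-110287365 and MGA (ENSG00000174197) at chr15:41621134-41773081.

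**Figure D1:**
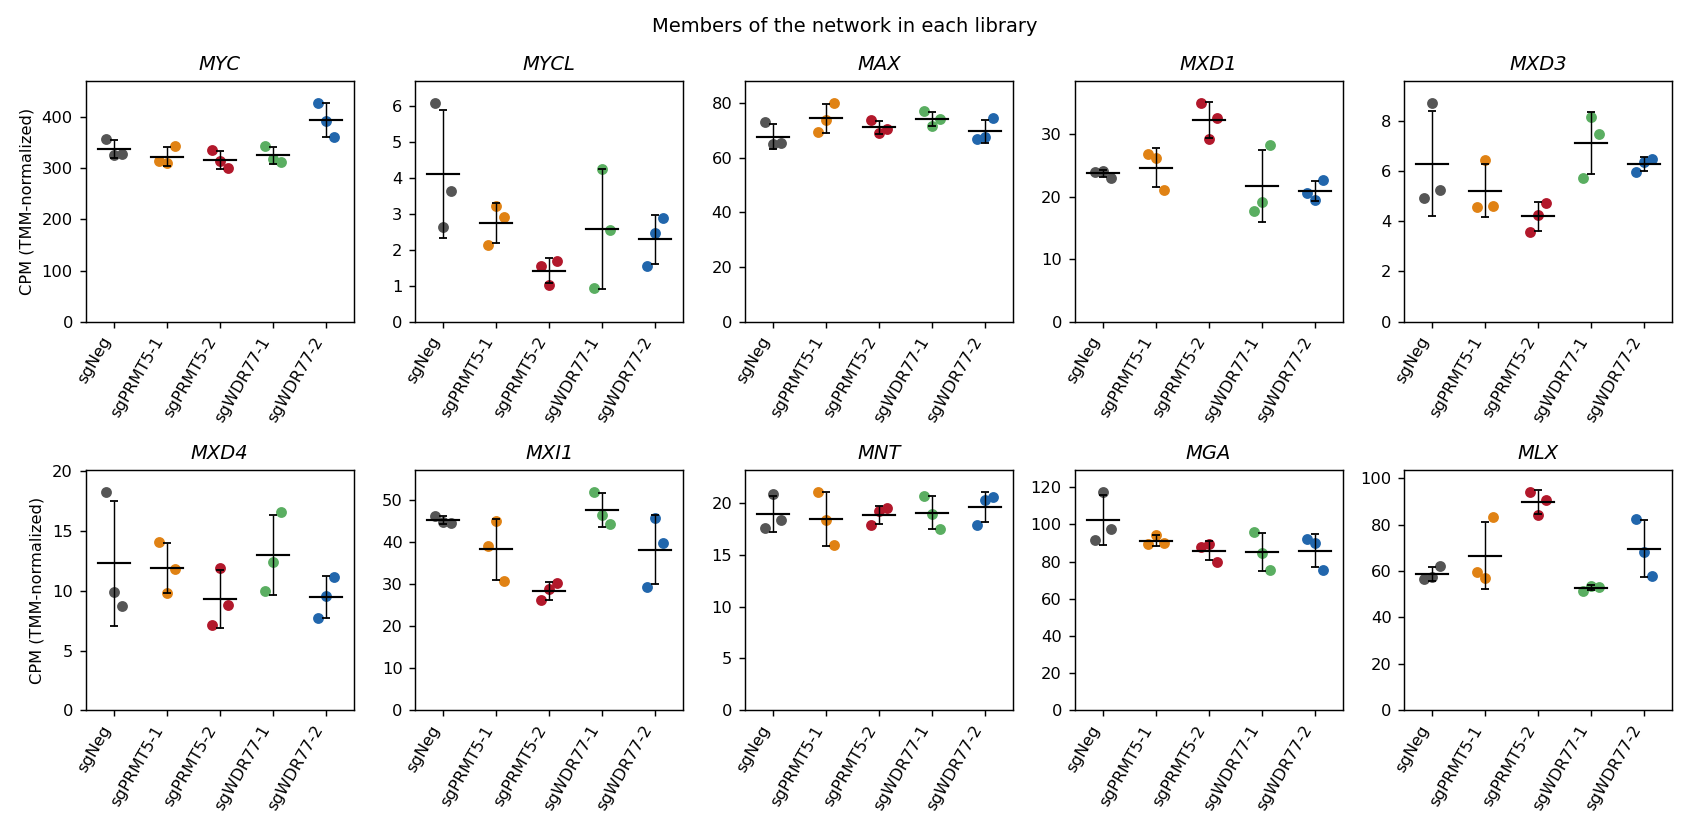
Level of each of the 10 members in CPM (TMM-normalized, linear axis from 0) in the 15 libraries, by condition; points are libraries, lines and bars the mean and SD (n = 3). With sgPRMT5-2, MLX (84.1 to 94.2 CPM) and MXD1 (29.2 to 35.0 CPM) lie above and MXI1 (26.1 to 30.1 CPM) below every sgNeg library, while MYC with sgWDR77-2 spans 361 to 428 CPM.

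The members answered most to sgPRMT5-2. Against sgNeg, 4 of 10 passed the test (limma voom, adjusted p under 0.05 over all genes tested), where 31.0% of all genes did: MLX and MXD1 rose, and MXI1 and MYCL fell. With sgPRMT5-1, 0 of 10 passed by limma voom, where 2.87% of all genes did; 0 had an unadjusted p under 0.05, and limma-trend called 0. With sgWDR77-1, 0 of 10 passed against 9.48% of all genes, with 1 at an unadjusted p under 0.05 (MGA) and 0 by limma-trend. With sgWDR77-2, 0 of 10 passed against 4.79% of all genes, with 2 at an unadjusted p under 0.05 (MYC and MGA) and 0 by limma-trend. The share with sgPRMT5-2 was near that of all genes, so the counts set no member apart from the genome at large. With sgPRMT5-2 the 4 calls were not kept in full when any 1 of the 6 libraries was left out. From 2 to 3 calls remained, the fewest without sgPRMT5-2 replicate 1. With the 12 libraries, MGA was added with sgPRMT5-2 and with sgWDR77-1, for 5 and 1 calls.

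Averaged over both sgRNAs of a gene, PRMT5KO changed 2 of 10 members against sgNeg (MLX up, MXI1 down), where 22.8% of all genes passed. WDR77KO changed 0 of 10 by limma voom, where 8.44% passed, with 2 at an unadjusted p under 0.05 (MYCL and MGA) and 0 by limma-trend. These 6 comparisons share the sgNeg libraries. Between the sgRNAs of PRMT5, 1 of 10 differed (MLX), against 7.53% of all genes. Between those of WDR77, 0 of 10 differed by limma voom against 2.41% of all genes, with 3 at an unadjusted p under 0.05 (MYC, MXI1 and MLX) and 0 by limma-trend. Set directly against WDR77KO, PRMT5KO had higher MLX and MXD1 and lower MXI1 and MXD3, 4 of 10 members, where 27.1% of all genes passed. Of these counts, PRMT5KO against sgNeg fell to 1 without sgNeg replicate 1, sgNeg replicate 3, sgPRMT5-1 replicate 3 or sgPRMT5-2 replicate 1. The count between the sgRNAs of PRMT5 was 2 without sgPRMT5-1 replicate 3 and 0 without any 1 of the other 5 libraries. PRMT5KO against WDR77KO gave 2 without sgWDR77-2 replicate 2. Without sgWDR77-1 replicate 1 there was 1 call in WDR77KO and 1 between the sgRNAs of WDR77. With the 12 libraries the counts were 4 for PRMT5KO, 1 for WDR77KO (MGA), 2 between the sgRNAs of PRMT5 and 5 between the knockouts. In these bulk libraries, fewer cells of a kind and less RNA per cell cannot be told apart.

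The median log2 fold change of the members lay close to 0 in the 4 comparisons of a single sgRNA with sgNeg: it was -0.05 with sgPRMT5-1, -0.17 with sgPRMT5-2, -0.02 with sgWDR77-1 and -0.07 with sgWDR77-2. Over all genes tested the medians were 0.02, 0.01, -0.01 and 0.02. Members differed in how far their 5 condition means spread on the log2 scale: MYCL spread most (1.29), then MLX (0.76), MXI1 (0.74), MXD3 (0.72) and MXD1 (0.61). MXD4 (0.48), MYC (0.31), MGA (0.26), MAX (0.14) and MNT (0.09) spread least.

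MYC, the activator at the centre of the network, was at 358, 326 and 329 CPM in sgNeg. It was at 314, 311 and 344 CPM with sgPRMT5-1 and at 336, 314 and 301 CPM with sgPRMT5-2, within or just under the sgNeg range. It was at 345, 319 and 312 CPM with sgWDR77-1 and at 428, 393 and 361 CPM with sgWDR77-2. The 3 sgWDR77-2 libraries were the highest of all 15, and the other conditions overlapped one another. Against sgNeg the log2 fold changes were -0.06, -0.09, -0.05 and 0.22 (both sgRNAs of PRMT5, then both of WDR77), and the last had a 95% confidence interval of 0.04 to 0.40 and an adjusted p of 0.149. None passed the test. With TMM scaling the 95% confidence intervals were -0.24 to 0.12 with sgPRMT5-1 and -0.27 to 0.09 with sgPRMT5-2. They depend on that scaling. With library totals alone, MYC had an unadjusted p under 0.05 with sgPRMT5-2 and in PRMT5KO. The median log2 fold change of all genes was then -0.08 and -0.07.

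MYC came near the threshold in the direct comparisons. From sgWDR77-1 to sgWDR77-2 the log2 fold change was 0.27 (adjusted p = 0.0890), and it was 0.30 without sgWDR77-1 replicate 1, which alone of 14 alternatives made the call (adjusted p = 0.0392). From WDR77KO to PRMT5KO it was -0.16 (adjusted p = 0.0543). That result was called in 10 of 21 alternatives, whose adjusted p ran from 0.00545 to 0.177. Among them, adjusted p was 0.0320 without sgPRMT5-1 replicate 3, 0.0353 without sgPRMT5-2 replicate 1, 0.0249 without sgWDR77-1 replicate 1, 0.0289 without sgWDR77-1 replicate 3 and 0.0297 without sgWDR77-2 replicate 3. With the 12 libraries it was 0.0166 at the same size of change, -0.16. MYC mRNA therefore sat at the edge of the call between the knockouts, lower in PRMT5KO.

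MAX, the partner that MYC and the repressors share, was one of the steadiest members. Over the 15 libraries it ran from 64.9 to 80.0 CPM, with condition means of 67.7 ± 4.45 CPM in sgNeg, 74.4 ± 5.32 with sgPRMT5-1, 71.0 ± 2.32 with sgPRMT5-2, 74.1 ± 2.61 with sgWDR77-1 and 69.6 ± 4.34 with sgWDR77-2 (SD, n = 3). The ranges of all 5 conditions overlapped. Log2 fold changes against sgNeg were 0.13, 0.07, 0.13 and 0.04 for the 4 sgRNAs in the same order, and the widest of their intervals ended at 0.33. Part of the MAX exons, 13.1%, overlaps FNTB on the opposite strand.

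MYCL, a MYC relative with the same partner, was scarce. It was at 6.10, 2.63 and 3.63 CPM in sgNeg and at 1.55, 1.02 and 1.69 CPM with sgPRMT5-2. All sgPRMT5-2 libraries lay under all sgNeg libraries, a separation that 50.4% of all genes showed in one direction or the other. The other conditions reached down to 0.924 CPM (sgWDR77-1 replicate 1) and up to 4.26 CPM (sgWDR77-1 replicate 2) and overlapped sgNeg. MYCL fell by 1.42 with sgPRMT5-2 (adjusted p = 0.0244), while with sgPRMT5-1, sgWDR77-1 and sgWDR77-2 its log2 fold changes of -0.51, -0.80 and -0.76 did not pass. With 36 counts at most in any library, the call hung on single libraries: adjusted p was 0.109 without sgNeg replicate 1, 0.0628 without sgPRMT5-2 replicate 1 and 0.0933 without sgPRMT5-2 replicate 2, in a range of 0.00509 to 0.109 over 14 alternatives. For PRMT5KO the log2 fold change was -0.96 (adjusted p = 0.0525). It passed without sgNeg replicate 2 (adjusted p = 0.0278) and with the 12 libraries (adjusted p = 0.0160), 2 of the 6 alternatives out of 18 that called it.

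MLX, the alternative partner, gave the clearest rise. It was at 56.7, 57.4 and 62.0 CPM in sgNeg. With sgPRMT5-2 it was at 94.2, 84.1 and 90.5 CPM, and with sgPRMT5-1 at 59.4, 57.0 and 83.2 CPM. All sgPRMT5-2 libraries lay above all sgNeg libraries, where 50.4% of all genes were separated either way. Of the sgPRMT5-1 libraries only replicate 3, which stood apart, came near them. With sgWDR77-1 it was at 51.5, 53.5 and 53.3 CPM, under every sgNeg library, and with sgWDR77-2 at 82.4, 68.2 and 58.0 CPM. The highest sgWDR77-2 value belonged to replicate 1, the library that stood apart in that condition. MLX rose with sgPRMT5-2 by a log2 fold change of 0.61 (95% confidence interval 0.34 to 0.88, adjusted p = 0.00119), and the call held in 14 of 14 alternatives, including the 12 libraries (0.59). The log2 fold changes of 0.16 with sgPRMT5-1, -0.15 with sgWDR77-1 and 0.23 with sgWDR77-2 did not pass.

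The sgRNAs of PRMT5 differed in MLX by 0.45 (adjusted p = 0.0337), higher with sgPRMT5-2. That call was lost without sgPRMT5-1 replicate 1 (adjusted p = 0.199) or replicate 2 (0.177), and without sgPRMT5-2 replicate 1 (0.131), replicate 2 (0.0658) or replicate 3 (0.115), and it was 0.61 (adjusted p = 1.22e-05) with the 12 libraries. Over both sgRNAs MLX rose in PRMT5KO by 0.39 (adjusted p = 0.0191), a call lost without sgNeg replicate 1 (adjusted p = 0.107), sgNeg replicate 2 (0.0847), sgNeg replicate 3 (0.0533), sgPRMT5-1 replicate 3 (0.0598) or sgPRMT5-2 replicate 1 (0.0555). It held in 11 of 18 alternatives, with adjusted p from 0.00561 to 0.113, and with the 12 libraries it was 0.28. Against WDR77KO, MLX was higher in PRMT5KO by 0.35 (adjusted p = 0.00881). That difference was called in 20 of 21 alternatives and lost with the sgRNAs of a gene pooled (adjusted p = 0.102).

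A search for the E-box CACGTG, which reads the same on both strands, in the RefSeq promoters (GRCh38.p14, 250 bases before to 50 bases after the start) matched 9 of the 10 members, all but MYC. It was found in 3 of these 9, MLX, MNT and MXD4, and in 2396 of 27305 genes overall (8.77%). The stretches before the first base that GENCODE annotates to each gene are shown because they carry the letters that MYC, MAX and MXD proteins are known to bind, 5′ to 3′ on the strand of each gene, with CACGTG in capitals. They lie at chr17:42566850-42567071 (plus strand, MLX), chr17:2401105-2401310 (minus strand, MNT) and chr4:2262110-2262359 (minus strand, MXD4).
MLX: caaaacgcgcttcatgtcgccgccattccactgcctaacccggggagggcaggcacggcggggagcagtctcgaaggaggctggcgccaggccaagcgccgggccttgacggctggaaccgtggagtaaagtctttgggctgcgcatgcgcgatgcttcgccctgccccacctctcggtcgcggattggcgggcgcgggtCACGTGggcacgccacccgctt
MNT: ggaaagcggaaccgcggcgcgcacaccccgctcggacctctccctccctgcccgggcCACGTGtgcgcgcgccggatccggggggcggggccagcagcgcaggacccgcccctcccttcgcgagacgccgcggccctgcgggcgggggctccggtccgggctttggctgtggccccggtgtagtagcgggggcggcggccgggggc
MXD4: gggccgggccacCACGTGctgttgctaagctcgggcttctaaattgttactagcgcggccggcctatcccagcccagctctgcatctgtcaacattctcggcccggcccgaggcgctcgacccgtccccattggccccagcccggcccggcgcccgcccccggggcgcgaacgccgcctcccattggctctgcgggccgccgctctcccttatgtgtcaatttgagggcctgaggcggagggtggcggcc
Counted from the RefSeq start, the match lies 50 bases upstream in MLX, 193 in MNT and 238 in MXD4. The MLX and MNT stretches stop short of that start, because GENCODE annotates an earlier first base. Of these 3 genes MLX passed the test with sgPRMT5-2, and MNT and MXD4 did not. A match describes the letters of the window and is not evidence of binding.

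MXI1, a MAX-binding repressor, moved opposite to MLX. It was at 46.2, 44.7 and 44.4 CPM in sgNeg, a tight group. With sgPRMT5-2 it was at 26.1, 28.7 and 30.1 CPM, and with sgPRMT5-1 at 39.1, 45.0 and 30.6 CPM. All sgPRMT5-2 libraries lay far under sgNeg, and the lowest sgPRMT5-1 library was again replicate 3. With sgWDR77-1 it was at 51.9, 46.5 and 44.2 CPM and with sgWDR77-2 at 29.3, 45.6 and 39.6 CPM, where replicate 1 was lowest. MXI1 fell with sgPRMT5-2 by 0.67 (95% confidence interval -0.99 to -0.36, adjusted p = 0.00179), a call made in 14 of 14 alternatives. It fell in PRMT5KO by 0.46 (adjusted p = 0.0106), called in 18 of 18. Log2 fold changes of -0.25, 0.07 and -0.26 with sgPRMT5-1, sgWDR77-1 and sgWDR77-2 did not pass.

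Between the sgRNAs of PRMT5 the log2 fold change of MXI1 was -0.42 (adjusted p = 0.0947). Without sgPRMT5-1 replicate 3 it was -0.55 and passed (adjusted p = 0.0246), and with the 12 libraries it was -0.57 (adjusted p = 0.000395). It passed in 3 of 14 alternatives. MXI1 was lower in PRMT5KO than in WDR77KO by a log2 fold change of -0.37 (adjusted p = 0.0129), called in 19 of 21 alternatives. The exceptions were sgWDR77-2 replicate 2 left out (adjusted p = 0.0525) and the sgRNAs pooled (0.0906).

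MXD1, the repressor known from keratinocyte differentiation, was at 23.9, 24.2 and 23.0 CPM in sgNeg. It was at 35.0, 29.2 and 32.5 CPM with sgPRMT5-2 and at 26.7, 26.1 and 21.1 CPM with sgPRMT5-1. Only the sgPRMT5-2 libraries all lay above sgNeg. With sgWDR77-1 it was at 17.7, 19.1 and 28.3 CPM and with sgWDR77-2 at 20.6, 19.4 and 22.7 CPM, the latter just under sgNeg. MXD1 rose with sgPRMT5-2 by 0.44 (95% confidence interval 0.14 to 0.75, adjusted p = 0.0263), while 0.05, -0.16 and -0.18 with the other sgRNAs did not pass. The call was made in 7 of 14 alternatives, with adjusted p from 0.00466 to 0.128. It was lost without sgNeg replicate 1 (adjusted p = 0.0787), replicate 2 (0.0596) or replicate 3 (0.0933), and without sgPRMT5-2 replicate 1 (0.128) or replicate 3 (0.0852). Against WDR77KO, MXD1 was higher in PRMT5KO by 0.42 (adjusted p = 0.00756), called in 21 of 21 alternatives. That direct difference was the firmest result for MXD1.

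MXD3, a repressor known from cells in S phase, was scarce, at 4.91, 8.71 and 5.26 CPM in sgNeg. It was at 4.58, 6.45 and 4.62 CPM with sgPRMT5-1 and at 3.58, 4.25 and 4.74 CPM with sgPRMT5-2. With sgPRMT5-2 the log2 fold change of -0.55 did not pass (adjusted p = 0.116). With sgWDR77-1 and sgWDR77-2 the means were 7.12 ± 1.25 and 6.27 ± 0.267 CPM (SD, n = 3), and log2 fold changes were 0.20 and 0.04. MXD3 was lower in PRMT5KO than in WDR77KO by a log2 fold change of -0.52 (adjusted p = 0.0371), called in 11 of 21 alternatives. Adjusted p was 0.0692 without sgPRMT5-1 replicate 1, 0.0836 without sgPRMT5-1 replicate 3, 0.0865 without sgPRMT5-2 replicate 1 and 0.0662 without sgPRMT5-2 replicate 2. It was 0.0853 without sgWDR77-1 replicate 2, 0.0579 without sgWDR77-1 replicate 3, 0.0736 without sgWDR77-2 replicate 2 and 0.0761 without sgWDR77-2 replicate 3. Exons of MXD3 overlap those of PRELID1 (24.2%, opposite strand) and RAB24 (19.5%, same strand), so some of its reads may have been set aside as ambiguous.

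MXD4 and MNT, repressors that can pair with MAX or MLX, passed in none of the 9 comparisons by limma voom. MXD4 ran from 7.15 to 18.3 CPM, and its highest library was sgNeg replicate 1 beside 9.86 and 8.71 CPM in the other sgNeg libraries. Its log2 fold changes against sgNeg were 0.02, -0.37, 0.12 and -0.31 for the sgRNAs of PRMT5 and then of WDR77, with intervals as wide as -0.92 to 0.18. MNT, a broadly expressed antagonist of MYC, ran from 15.9 to 21.1 CPM. It was the steadiest member, with log2 fold changes of -0.04, -0.01, 0.01 and 0.05 in the same order.

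MGA, a very large protein that pairs with MAX and also belongs to the PRC1.6 repressor complex, was at 91.6, 118 and 97.8 CPM in sgNeg. It was at 89.2, 94.6 and 90.1 CPM with sgPRMT5-1 and at 88.1, 89.4 and 80.0 CPM with sgPRMT5-2. It was at 95.7, 84.8 and 75.4 CPM with sgWDR77-1 and at 92.0, 89.9 and 75.6 CPM with sgWDR77-2. The means of the 4 conditions lay under the sgNeg mean. That mean was raised by replicate 2, at 118 CPM beside 91.6 and 97.8 CPM, so the size of the changes below rests in part on this library. The log2 fold changes of -0.16, -0.25, -0.26 and -0.25 had adjusted p of 0.492, 0.0963, 0.154 and 0.215, and none passed. With 1 library or the 3 that stood apart left out, some passed: with sgPRMT5-2, adjusted p was 0.0464 without sgNeg replicate 1. For WDR77KO it was 0.0320 without sgWDR77-1 replicate 1. With the 12 libraries the log2 fold changes were -0.27 with sgPRMT5-2 (adjusted p = 0.0150), -0.34 with sgWDR77-1 (0.0252), -0.22 in PRMT5KO (0.0361) and -0.33 in WDR77KO (0.00876). MGA was called in 4 of 14 alternatives with sgPRMT5-2, 1 of 14 with sgWDR77-1, 3 of 18 for PRMT5KO and 2 of 18 for WDR77KO.

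**Figure D2:**
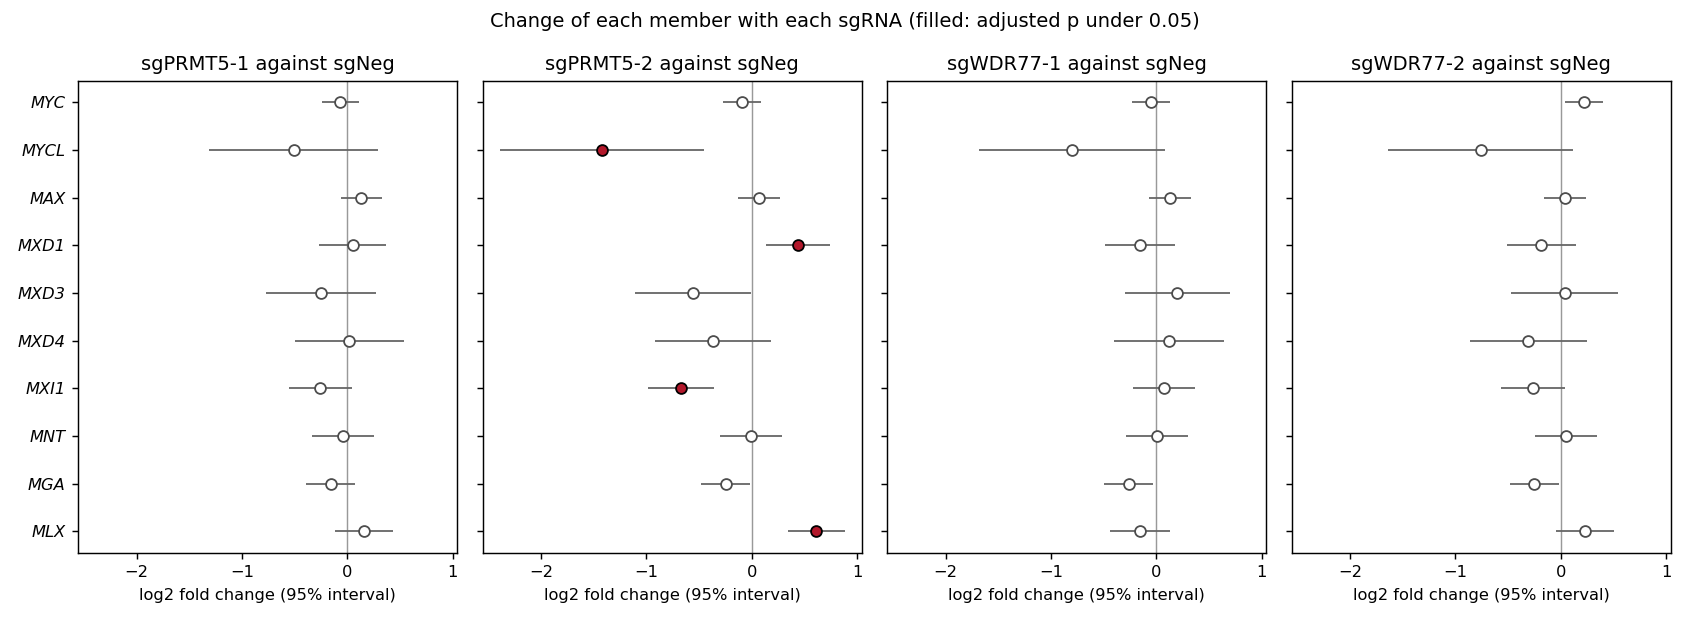
Log2 fold change of each member against sgNeg with its 95% confidence interval, a panel for each sgRNA; filled points have an adjusted p under 0.05. With sgPRMT5-2, MLX (0.61) and MXD1 (0.44) are filled on the right and MXI1 (-0.67) and MYCL (-1.42) on the left, and no point is filled in the other 3 panels.

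Known target genes were read from lists, whose counts stand beside the shares of all genes that passed, 2.87% with sgPRMT5-1, 31.0% with sgPRMT5-2, 9.48% with sgWDR77-1 and 4.79% with sgWDR77-2. The first held 22 genes of ribosome biogenesis that MYC and MAX are known to activate. With sgPRMT5-2, 19 of 22 rose and 0 fell, with 21 up and 0 down at an unadjusted p under 0.05 and 18 up and 0 down by limma-trend. The median log2 fold change was 0.67, against 0.01 over all genes. With sgPRMT5-1, 0 of 22 passed by limma voom (12 up at an unadjusted p under 0.05, 0 by limma-trend), and the median was 0.28. With sgWDR77-1, 0 passed (2 down at an unadjusted p under 0.05, 0 by limma-trend) at a median of -0.09. With sgWDR77-2, POLR1B passed (7 up and 0 down at an unadjusted p under 0.05, 1 up by limma-trend) at a median of 0.20. Without sgWDR77-1 replicate 1 or replicate 2, 1 fell with sgWDR77-1. In the fit of 12 libraries 1 rose with sgPRMT5-1 (median 0.16), 21 rose with sgPRMT5-2 (0.64), 4 fell with sgWDR77-1 (-0.17) and 1 rose with sgWDR77-2 (0.10). Over 14 alternatives the sgPRMT5-2 count ran from 16 to 21. The list was thus raised as a body with sgPRMT5-2, in which MYC mRNA did not pass the test.

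DKC1, the pseudouridine synthase of ribosomal RNA, showed the pattern in single libraries. It was at 165, 183 and 177 CPM in sgNeg and at 289, 290.5 and 296 CPM with sgPRMT5-2. With sgPRMT5-1 it was at 206, 206 and 277 CPM, with sgWDR77-1 at 224, 183 and 161 CPM, and with sgWDR77-2 at 253, 202 and 191 CPM. The libraries that stood apart were the highest of their conditions. DKC1 rose with sgPRMT5-2 by 0.74 (adjusted p = 0.000140). POLR1B, a subunit of RNA polymerase I, went from 46.6 ± 4.93 to 75.2 ± 4.92 CPM (SD, n = 3), a log2 fold change of 0.70. WDR43, which acts in processing of the small subunit RNA, went from 101.5 ± 5.95 to 164 ± 5.94 CPM (0.69). UBTF, which recruits RNA polymerase I, went from 95.2 ± 9.66 to 132 ± 4.83 CPM (0.48). With sgWDR77-2, POLR1B rose by 0.46 (adjusted p = 0.0373), a call lost without sgNeg replicate 1 (adjusted p = 0.144), sgNeg replicate 2 (0.153), sgWDR77-2 replicate 1 (0.200) or sgWDR77-2 replicate 2 (0.0980).

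By library, the median of the 22 genes over the sgNeg mean (log2) was -0.07, -0.08 and 0.13 in sgNeg itself. It was 0.64, 0.62 and 0.62 with sgPRMT5-2 and 0.20, 0.14 and 0.52 with sgPRMT5-1. It was 0.17, -0.15 and -0.22 with sgWDR77-1 and 0.45, 0.12 and 0.06 with sgWDR77-2. All 22 genes were above the sgNeg mean in 5 libraries: the 3 of sgPRMT5-2, sgPRMT5-1 replicate 3 and sgWDR77-2 replicate 1. Those last are also the libraries in which MLX was high and MXI1 low within their conditions. Whatever set them apart from their replicates was not tested.

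In PRMT5KO, 17 of 22 rose and 0 fell, where 22.8% of all genes passed (median 0.44; 19 up and 0 down at an unadjusted p under 0.05, 16 up and 0 down by limma-trend). That count was 8 without sgNeg replicate 1 and 7 without sgNeg replicate 2, and 20 with the 12 libraries. UBTF was among those lost, with adjusted p of 0.0905 and 0.0803. In WDR77KO, 0 of 22 passed by limma voom (2 up at an unadjusted p under 0.05, 0 by limma-trend; median 0.06), but 3 fell in the fit of 12 libraries (median -0.03), so the direction there rested on the libraries that stood apart. PRMT5KO was higher than WDR77KO for 17 of 22 (median 0.35), where 27.1% of all genes passed, and for 8 with the sgRNAs pooled. Between the sgRNAs of PRMT5, where 7.53% of all genes passed, 3 were higher with sgPRMT5-2. These were NOP16 (0.64), MYBBP1A (0.47) and PES1 (0.44), named after their values were seen. That count was 0 without sgPRMT5-1 replicate 1, 1 without sgPRMT5-1 replicate 2 or any 1 sgPRMT5-2 library, 13 without sgPRMT5-1 replicate 3 and 19 with the 12 libraries. Between the sgRNAs of WDR77, where 2.41% of all genes passed, FBL (0.41) was higher with sgWDR77-2. No gene passed there without sgWDR77-2 replicate 1 or replicate 2 (0 each), and 5 did without sgWDR77-1 replicate 1.

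**Figure D3:**
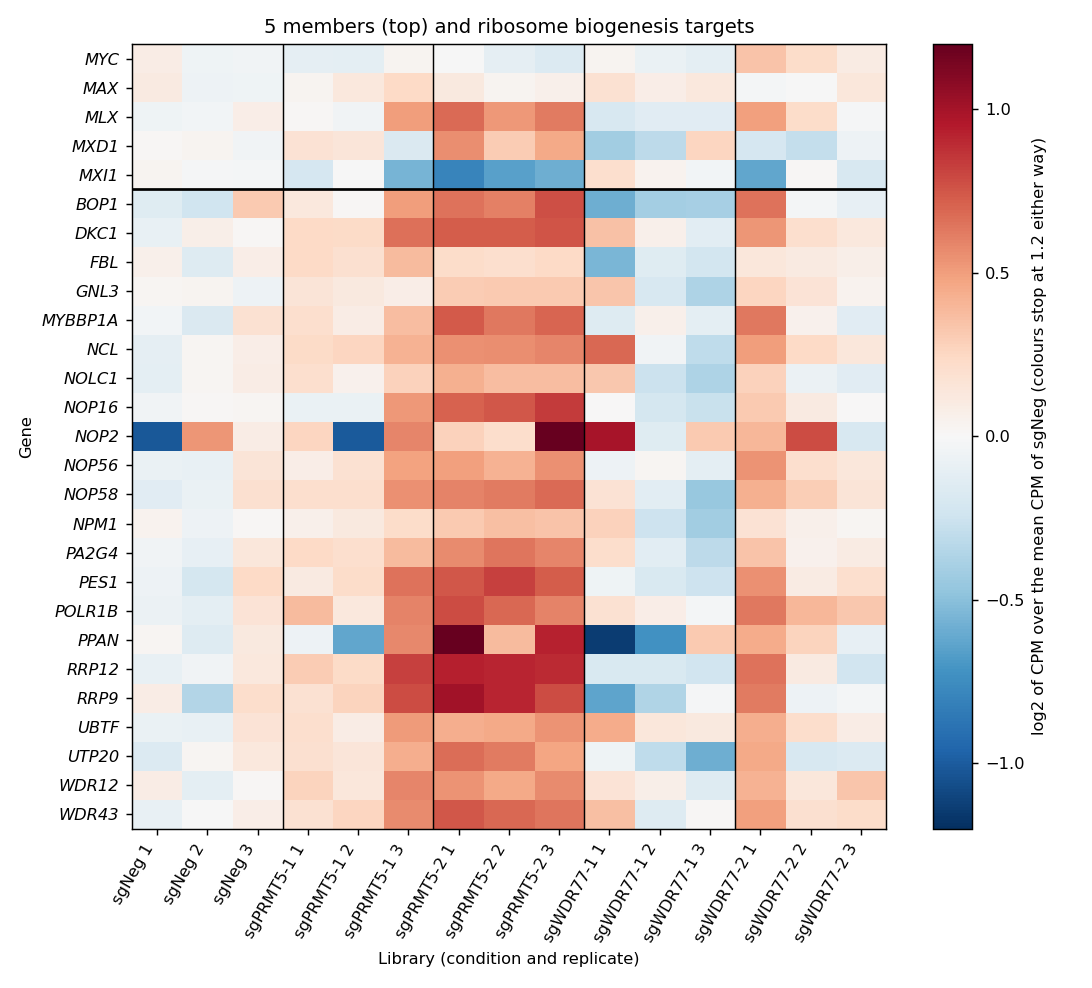
Log2 of CPM over the mean CPM of sgNeg (colour scale, stopping at 1.2 either way) for 5 members and the 22 ribosome biogenesis targets, a column for each of the 15 libraries. The 3 sgPRMT5-2 columns are red for nearly every target (medians 0.64, 0.62 and 0.62), with sgPRMT5-1 replicate 3 (0.52) and sgWDR77-2 replicate 1 (0.45) next.

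Targets of metabolism and growth, 19 tested of 20 listed (TERT was too low), came next. With sgPRMT5-2, 8 rose and 0 fell (median 0.25, with 10 up and 0 down at an unadjusted p under 0.05 and 6 up by limma-trend). Of all 14061 genes tested, 31.0% passed in either direction, 2296 up and 2065 down, at a median of 0.01. The list count moved with single libraries, as given below, and is not read as a result about the list. With sgWDR77-1, 6 fell and 0 rose (median -0.34; 9 down and 0 up at an unadjusted p under 0.05, 5 down by limma-trend). With sgPRMT5-1, HK2 rose (median 0.22), and with sgWDR77-2, HK2 rose and CCND2 fell (median 0.13). The sgPRMT5-2 count was 4 without sgNeg replicate 1 and 5 without sgNeg replicate 2 or sgPRMT5-2 replicate 3. For sgWDR77-1 it was 3 without sgNeg replicate 3. In the fit of 12 libraries 4 rose with sgPRMT5-1, 12 rose with sgPRMT5-2, 7 fell with sgWDR77-1, and 2 rose and 1 fell with sgWDR77-2. The sgRNAs of WDR77 thus did not agree on this list. PRMT5KO raised 7 and lowered 0, where 22.8% of all genes passed (12 up and 0 down at an unadjusted p under 0.05, 7 up by limma-trend), but 4 without sgNeg replicate 1, 3 without sgNeg replicate 2 and 13 with the 12 libraries. PRMT5KO was higher than WDR77KO for 12 of 19 (median 0.35), where 27.1% of all genes passed, and sgWDR77-2 higher than sgWDR77-1 for 6, where 2.41% did. The latter count was 1 without sgWDR77-2 replicate 1 and 3 without sgWDR77-2 replicate 2. In WDR77KO 2 fell and 0 rose, where 8.44% of all genes passed (median -0.10). That count was 1 without sgNeg replicate 1, sgNeg replicate 3 or sgWDR77-2 replicate 2, and 4 without sgWDR77-1 replicate 1 or sgWDR77-2 replicate 1. In the fit of 12 libraries 5 fell and 1 rose.

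CCND2, a D-type cyclin, moved in opposite directions. It was at 49.3, 53.3 and 63.7 CPM in sgNeg. It was at 81.9, 65.2 and 66.9 CPM with sgPRMT5-1 and at 91.3, 88.6 and 89.8 CPM with sgPRMT5-2, all above sgNeg. It was at 20.3, 20.7 and 23.7 CPM with sgWDR77-1 and at 18.7, 20.1 and 20.2 CPM with sgWDR77-2, all far under sgNeg. CCND2 rose with sgPRMT5-2 by 0.71 (adjusted p = 4.99e-05) and fell by 1.35 with sgWDR77-1 (adjusted p = 1.23e-06) and by 1.48 with sgWDR77-2 (adjusted p = 5.19e-07). Between PRMT5KO and WDR77KO it differed by 1.95 (adjusted p = 7.15e-12), and that difference held in every alternative run. It is the sharpest contrast between the knockouts among the named targets.

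ODC1, the first enzyme of polyamine synthesis and a classic MYC target, was at 138, 131 and 169 CPM in sgNeg. It was at 369, 366 and 341 CPM with sgPRMT5-2, and at 169, 161 and 245 CPM with sgPRMT5-1. With sgWDR77-1 it was at 104, 116 and 94.9 CPM and with sgWDR77-2 at 224, 164 and 146 CPM. Again sgPRMT5-1 replicate 3 and sgWDR77-2 replicate 1 were the highest of their conditions. ODC1 rose with sgPRMT5-2 by 1.31 (adjusted p = 1.05e-06). HK2, a hexokinase, went from 206 ± 6.68 CPM in sgNeg to 282.5 ± 2.17 CPM with sgPRMT5-2 (SD, n = 3; log2 fold change 0.45). With sgPRMT5-1 (0.31) and sgWDR77-2 (0.29) the HK2 call was lost whichever single library of those comparisons was left out, with adjusted p from 0.0981 to 0.169 and from 0.0682 to 0.228. LDHA, lactate dehydrogenase, fell with sgWDR77-1 by 0.56 (adjusted p = 0.000993), and SLC2A1, a glucose transporter, by 0.43 (adjusted p = 0.0123). In WDR77KO, CCND2 and SLC2A1 fell (-1.41 and -0.30). The SLC2A1 call was lost without sgNeg replicate 1 (adjusted p = 0.114), sgNeg replicate 3 (0.114) or sgWDR77-2 replicate 2 (0.0582). The fit of 12 libraries added CCND2 up with sgPRMT5-1 (0.40), ODC1 down with sgWDR77-1 (-0.45) and LDHA down in WDR77KO (-0.32).

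Of 9 genes that MYC is known to repress, 8 were tested (CDKN1C was too low). GADD45A, a growth arrest gene, was at 39.1, 51.3 and 55.5 CPM in sgNeg. It was at 83.3, 96.4 and 92.5 CPM with sgPRMT5-1, 153, 149 and 153 CPM with sgPRMT5-2, 90.1, 76.1 and 75.7 CPM with sgWDR77-1 and 103, 91.2 and 94.9 CPM with sgWDR77-2. Every knockout library lay above every sgNeg library. How many of all genes were separated in this way was not counted. It rose with all 4 sgRNAs (0.91, 1.65, 0.74 and 1.00), in each alternative run, and was the only member or gene of the 7 lists to pass in the same direction with all 4. KLF6, a zinc finger factor, was at 54.9, 61.8 and 67.1 CPM in sgNeg and at 217, 216 and 232 CPM with sgPRMT5-2. It was at 86.8, 81.8 and 74.0 CPM with sgPRMT5-1, 49.5, 53.7 and 58.0 CPM with sgWDR77-1 and 158, 126 and 122 CPM with sgWDR77-2. KLF6 thus differed in size of change between the sgRNAs of each gene. It rose by 1.86 with sgPRMT5-2 and by 1.14 with sgWDR77-2, and the direct differences of 1.45 and 1.33 passed. With sgPRMT5-1 its log2 fold change of 0.40 had the same direction and did not pass (adjusted p = 0.0591). With sgWDR77-1 it was -0.19 and did not pass (adjusted p = 0.371). CDKN1A, which encodes the cell cycle inhibitor p21, was at 43.0, 39.0 and 49.9 CPM in sgNeg and at 147, 125 and 127 CPM with sgPRMT5-2, a rise of 1.6. It was at 53.3, 66.2 and 78.6 CPM with sgPRMT5-1, 26.2, 37.6 and 54.6 CPM with sgWDR77-1 and 47.9, 47.2 and 58.9 CPM with sgWDR77-2.

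The list did not move as a body. With sgPRMT5-2, 3 rose (CDKN1A, GADD45A and KLF6) and 2 fell, CDKN1B (-0.58) and CEBPD (-1.19), named after their values were seen, at a median of -0.23. With sgPRMT5-1, GADD45A rose (median 0.07), with sgWDR77-1, GADD45A rose and NDRG1 fell (-0.97; median 0.13), and with sgWDR77-2, GADD45A and KLF6 rose (median 0.03). In PRMT5KO, 3 rose and 1 fell, where 22.8% of all genes passed. The fit of 12 libraries gave 2 up with sgPRMT5-1, 3 up and 3 down with sgPRMT5-2, 2 up and 1 down with sgWDR77-1, and 3 up and 2 down in PRMT5KO. In WDR77KO, GADD45A (0.87) and KLF6 (0.48) rose, but KLF6 did not pass without sgNeg replicate 1 (adjusted p = 0.0559) or with the sgRNAs pooled (0.508). In WDR77KO, NDRG1 changed by -0.58 on the log2 scale (adjusted p = 0.0613), and it passed without sgWDR77-1 replicate 3 (0.0228) or sgWDR77-2 replicate 3 (0.00827).

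Of 5 known targets of MLX with MLXIP or MLXIPL, several fell. None rose with all libraries in the fit, but with the 12 libraries 1 rose with sgPRMT5-1 (beside 1 that fell) and 1 in PRMT5KO (beside 3 that fell). KLF10 was at 154, 148 and 145 CPM in sgNeg and at 83.5, 87.9 and 81.2 CPM with sgPRMT5-2. It was at 131, 119 and 114 CPM with sgPRMT5-1, 132, 103 and 105 CPM with sgWDR77-1 and 82.2, 98.2 and 120 CPM with sgWDR77-2. All 12 knockout libraries lay under the sgNeg libraries, a separation whose share over all genes was not counted. KLF10, a zinc finger repressor, fell by 0.83 with sgPRMT5-2, 0.40 with sgWDR77-1 and 0.59 with sgWDR77-2. With sgWDR77-1 the call was lost without sgNeg replicate 1 (adjusted p = 0.0794), replicate 2 (0.0622) or replicate 3 (0.0535), or without sgWDR77-1 replicate 2 (0.0951) or replicate 3 (0.0767). HBP1, a repressor of cell cycle genes, fell with sgPRMT5-2 (-0.83; adjusted p = 0.0564 without sgNeg replicate 1).

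TXNIP, a brake on glucose uptake and the best known glucose-induced target of MLX complexes, was at 488, 364 and 317 CPM in sgNeg and at 249, 249 and 252 CPM with sgPRMT5-2. It was at 332, 329 and 284 CPM with sgPRMT5-1, 329, 393 and 530 CPM with sgWDR77-1 and 195, 300 and 294 CPM with sgWDR77-2. It fell with sgPRMT5-2 (-0.62) and sgWDR77-2 (-0.57). Without sgNeg replicate 1, the highest control, neither passed (adjusted p = 0.0603 and 0.220), and with sgWDR77-2 the call was also lost without sgNeg replicate 2 (0.0939) or sgWDR77-2 replicate 1 (0.254). In PRMT5KO it fell by 0.45, with adjusted p of 0.204 without sgNeg replicate 1 and 0.0580 without sgNeg replicate 2. The list median was -0.29 with sgPRMT5-1, -0.62 with sgPRMT5-2, 0.01 with sgWDR77-1 and -0.35 with sgWDR77-2. The last rested on the library that stood apart: by library the medians were -0.86, -0.18 and -0.07, and in the fit of 12 libraries it was -0.11 (the others -0.24, -0.65 and 0.02). MLX mRNA itself was higher with sgPRMT5-2, where 3 of these targets were lower, or 1 without sgNeg replicate 1.

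Among 17 tested partners of 18 listed (MYCN was too low), cofactors and corepressors moved both ways with sgPRMT5-2: 5 rose and 2 fell (median 0.14), a share near the 31.0% of all genes and so no result about the partners as a list. Without single libraries that count of 7 was 4 (sgNeg replicate 1, sgPRMT5-2 replicate 1 or sgPRMT5-2 replicate 2) or 3 (sgNeg replicate 2 or sgPRMT5-2 replicate 3). MLXIPL, the glucose sensor that pairs with MLX, fell from 5.73 ± 2.07 CPM in sgNeg to 2.25 ± 0.268 CPM with sgPRMT5-2 (SD, n = 3; log2 fold change -1.27, adjusted p = 0.00680). That call held in every alternative, also in PRMT5KO (-1.15). HDAC1, a deacetylase of the SIN3 complex, and RUVBL1, a helicase that binds MYC, rose in PRMT5KO by 0.40 and 0.43. Neither passed without sgNeg replicate 1 (adjusted p = 0.111 and 0.0661) or sgNeg replicate 2 (0.0629 and 0.0588). MLXIP, the other sensor, fell in WDR77KO (-0.32), with an adjusted p of 0.0507 without sgNeg replicate 1. It was the only partner called there, where 4 fell without sgWDR77-1 replicate 1, 2 without sgWDR77-2 replicate 1 and 5 in the fit of 12 libraries. That fit also gave 5 up and 3 down with sgPRMT5-2, 4 down with sgWDR77-1 and 3 down with sgWDR77-2. PRMT5KO was higher than WDR77KO for 8 of 17 and lower for 0, where 27.1% of all genes passed (10 up and 1 down at an unadjusted p under 0.05, 8 up by limma-trend). That count was 4 without sgPRMT5-1 replicate 3, sgPRMT5-2 replicate 3 or sgWDR77-2 replicate 3, and 5 without sgPRMT5-2 replicate 1 or sgWDR77-2 replicate 2, so it is not read as a result about the partners.

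Of 9 subunits of PRC1.6, the complex that holds MGA, CBX3 (heterochromatin protein HP1 gamma) and TFDP1 (the E2F partner) fell in WDR77KO, by 0.31 and 0.30, where 8.44% of all genes passed. CBX3 had an adjusted p of 0.0591 without sgNeg replicate 2. TFDP1 had one of 0.0955 without sgNeg replicate 1, 0.0970 without sgNeg replicate 3 and 0.0516 without sgWDR77-2 replicate 2. In PRMT5KO 0 of 9 passed by limma voom (2 at an unadjusted p under 0.05, 0 by limma-trend). With sgPRMT5-2, where 31.0% of all genes passed, 1 of 9 did: CBX3 fell there too (-0.29, adjusted p = 0.0228). With sgWDR77-2 its log2 fold change of -0.28 did not pass (adjusted p = 0.0986). Between PRMT5KO and WDR77KO the direct test for CBX3 did not pass (0.13, adjusted p = 0.169). Medians were 0.08 in PRMT5KO and -0.09 in WDR77KO. Of 13 factors of MYC turnover, CIP2A, which shields MYC from a phosphatase, rose in PRMT5KO by 0.50 (adjusted p = 0.00417). USP28, a deubiquitinase of MYC, fell by 0.27 (adjusted p = 0.0373), a call lost without sgNeg replicate 1 (adjusted p = 0.0877), sgNeg replicate 3 (0.0852) or sgPRMT5-2 replicate 1 (0.0653). These 2 of 13 fall short of the 22.8% of all genes that passed in PRMT5KO. With sgPRMT5-2, 2 of 13 rose and 2 fell, where 31.0% of all genes passed. BTRC, a ubiquitin ligase subunit, was among those that fell (-0.38, adjusted p = 0.0227). In WDR77KO 0 of 13 passed by limma voom (3 at an unadjusted p under 0.05, 0 by limma-trend). BTRC, a ubiquitin ligase subunit, had a log2 fold change of -0.32 there. It passed without sgNeg replicate 2 (adjusted p = 0.0427) or sgWDR77-2 replicate 1 (0.0487). CIP2A passed there without sgWDR77-1 replicate 3 (0.0239). In the fit of 12 libraries 2 of 13 fell in WDR77KO, and 1 rose and 2 fell in PRMT5KO. MYC protein was not analysed here.

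**Figure D4:**
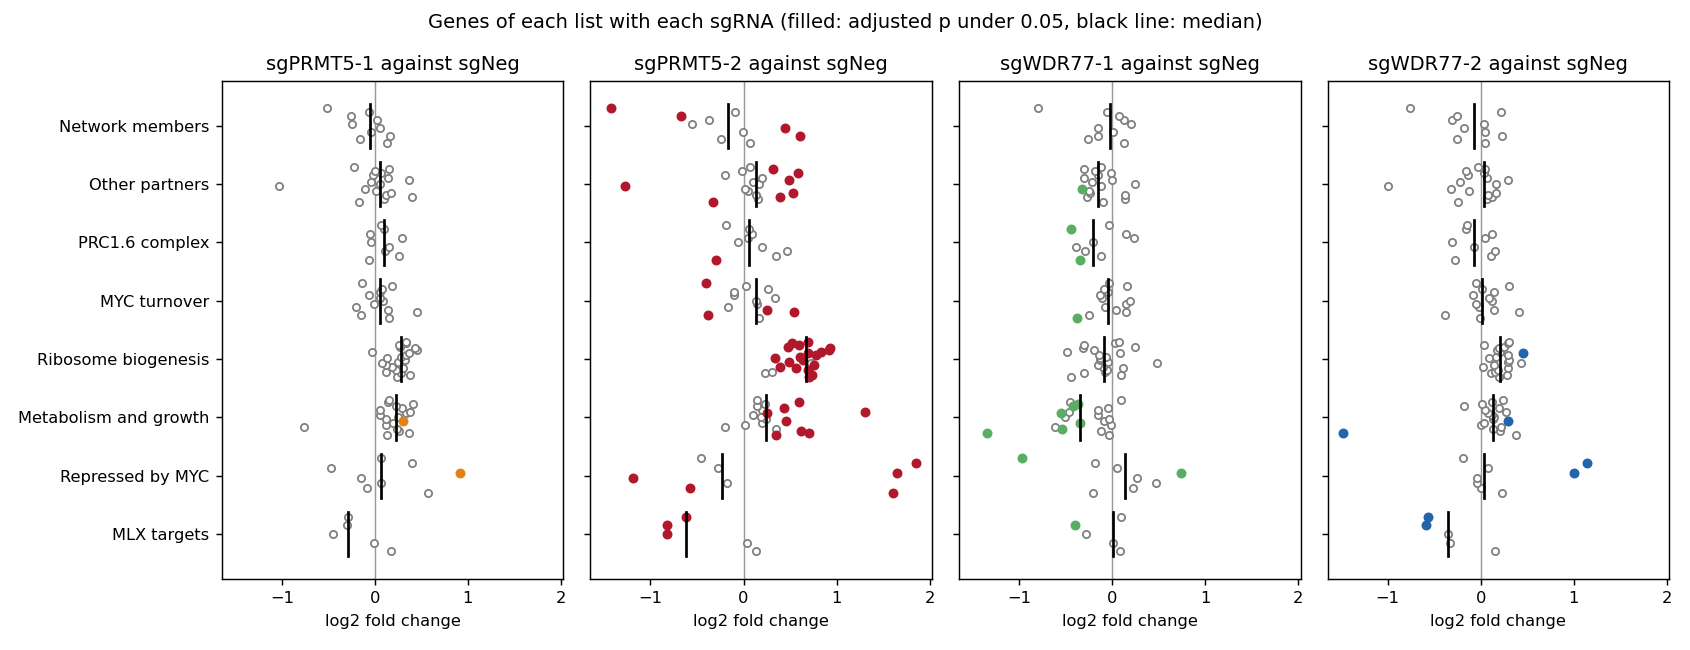
Log2 fold change of each gene of the members and 7 lists against sgNeg, a panel for each sgRNA; filled points have an adjusted p under 0.05 and black lines are list medians. The ribosome biogenesis targets sit right of 0 with sgPRMT5-2 (median 0.67, 19 of 22 filled), while 3 of the 5 MLX targets are filled to the left (median -0.62) and the others lie just right of 0.

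CACGTG was found in the promoters of 8 of 18 matched ribosome biogenesis genes (44.4%) and 11 of 17 matched genes of metabolism and growth (64.7%), beside 8.77% of all genes. It was in 2 of 5 repressed targets, 1 of 4 MLX targets, 2 of 14 partners, 1 of 9 PRC1.6 subunits and 1 of 9 turnover factors. In ODC1 there is a match 29 bases upstream of the start and another 6 bases downstream, and KLF6 has one 97 bases upstream. The target lists hold genes known to be bound by MYC, so these shares describe the lists and are no independent result.

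The genes whose levels ran most like each of the 3 most variable members with a mean count of at least 50 were sought over the 15 libraries among 9221 genes, by Pearson correlation of log2 CPM. For MLX they were RBM22 (0.97), RRS1 (0.96) and ATAD3A (0.96). For MXI1 they were GRAMD1C (0.96), GNAQ (0.95) and FAM172A (0.95). For MXD1 they were ZNF200 (0.91), USF1 (0.90) and FAM214B (0.90). By Spearman correlation the first 3 for MLX were others, MIEF1, ODC1 and WDR82 (0.96 each), only GRAMD1C was shared for MXI1, and ZNF200 and FAM214B were shared for MXD1. The libraries fall into 5 conditions, so these values describe likeness across conditions as well as libraries. MLX shares 18.2% of its exons with PSMC3IP on the opposite strand. PSMC3IP was at 3.67 ± 0.454 CPM in sgNeg and 6.34 ± 1.02 CPM with sgPRMT5-2 (SD, n = 3; log2 fold change 0.77), against 58.7 ± 2.90 and 89.6 ± 5.09 CPM for MLX.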

How the data were processed

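The 15 libraries were of mRNA from HSC-5 cells. The authors aligned reads to hg38 with STAR and ran htseq-count per gene. What they deposited is raw counts, which were analysed here. Of all reads, 2.75% to 7.16% were left uncounted for no feature, 7.09% to 7.93% as ambiguous and 9.49% to 13.1% as not uniquely aligned. The labels name a stranded kit and the study's methods another kit, and the strand setting of the counting is not stated, so counts of genes that overlap are uncertain. Genes with a mean normalized count of at least 3 were tested, 14061 of 60649. Counts were TMM-normalized and fitted with limma voom (limma 3.58.1, R 4.3.3) over the 5 conditions, with 9 contrasts. Adjusted p-values are Benjamini-Hochberg over all genes tested, two-sided, and 0.05 was the threshold. The edgeR and DESeq2 tests were not used, because an automated check could not read the counts as such and limma voom was the stated fallback. KO contrasts average both sgRNAs. Gene names matched GENCODE v44 for 60507 of 60649 identifiers. Named list genes are the 3 with the smallest adjusted p in PRMT5KO and in WDR77KO, plus any that passed with all 4 sgRNAs in the same direction; 1 gene of the partner list stays in the counts and is otherwise not reported here. Alternatives were other scalings, filters, limma-trend, separate and pooled fits, a replicate block and leaving out libraries. The code was tested on simulated data. The members and lists were chosen with earlier results of these data known.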

Additional observations from a re-analysis of the deposited data

Results flagged for a closer look

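A test of the difference itself passed for the sgRNAs of PRMT5, sgPRMT5-2 against sgPRMT5-1, in MLX (log2 fold change 0.45) and, among the targets that the naming rule picked, in ODC1 (0.93), CDKN1A (1.03), GADD45A (0.74), KLF6 (1.45) and KLF10 (-0.52). KLF10 did not pass without sgPRMT5-1 replicate 1 (adjusted p = 0.0693), and MLX did not pass without any 1 of 5 libraries, as given above. Each of these genes moved further from sgNeg with sgPRMT5-2.

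The sgRNAs of WDR77, sgWDR77-2 against sgWDR77-1, differed in WDR77 itself (-0.85), ODC1 (0.74), LDHA (0.63), HK2 (0.38), KLF6 (1.33) and TXNIP (-0.66). WDR77 did not pass without sgWDR77-2 replicate 1 (adjusted p = 0.0674) or replicate 2 (0.0620). Without sgWDR77-2 replicate 1, which stood apart, adjusted p was 0.144 for ODC1, 0.124 for HK2 and 0.249 for TXNIP. TXNIP did not pass either without sgWDR77-2 replicate 2 (0.0593), sgWDR77-1 replicate 2 (0.0573) or sgWDR77-1 replicate 3 (0.0998).

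PRMT5KO and WDR77KO differed, by the direct test, in the members MXD1 (0.42), MXD3 (-0.52), MXI1 (-0.37) and MLX (0.35), and in the targeted genes PRMT5 (-0.68) and WDR77 (1.99). Among partners the difference passed for MLXIP (0.28), RUVBL1 (0.28) and HDAC1 (0.47), in PRC1.6 for TFDP1 (0.38), and among turnover factors for USP28 (-0.22) and AURKA (0.36). Targets that differed were DKC1 (0.36), WDR43 (0.33), POLR1B (0.26), ODC1 (0.94), LDHA (0.53), HK2 (0.28), SLC2A1 (0.49), CCND2 (1.95), CDKN1A (1.08), GADD45A (0.41) and KLF6 (0.65). Of these, POLR1B did not pass without any 1 of 8 libraries (adjusted p from 0.0511 to 0.103), RUVBL1 without any 1 of 4 (0.0532 to 0.0641) and USP28 without any 1 of 4 (0.0608 to 0.0805). MXD3 did not pass without any 1 of 8 libraries (0.0579 to 0.0865), nor MXI1 without sgWDR77-2 replicate 2 (0.0525). With the sgRNAs pooled, MXD1 was the only member to pass (MLX 0.102, MXI1 0.0906 and MXD3 0.0518), and POLR1B, RUVBL1, USP28, WDR43, GADD45A and KLF6 did not pass either. Genes outside the naming rule that differed between sgRNAs, such as NOP16 and FBL, are given with their lists. What made these effects differ was not tested.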

How the results depend on the processing

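Of 2853 values of named genes under alternatives, 2521 kept their direction and side of the threshold, 191 lost a call, 141 gained one and 0 reversed. Of 987 list counts, 769 stayed within 1.5 times, 139 fell further and 79 rose further. With a separate fit for each comparison, genes called were 385 with sgWDR77-1 (1333 with all libraries in 1 fit), 682 in WDR77KO (1187), 2690 between the sgRNAs of PRMT5 (1059) and 17 between those of WDR77 (339), and members called were 4 in PRMT5KO (2) and 3 between the sgRNAs of PRMT5 (1). With the sgRNAs of a gene pooled, 1 member was called in PRMT5KO, 1 between the knockouts (4), 477 genes in WDR77KO and 1962 between the knockouts (3813). With no filter on low counts 0 members differed between the sgRNAs of PRMT5, and with library totals alone 219 genes differed between those of WDR77. With the 12 libraries, genes called were 714 with sgPRMT5-1 (404), 1240 with sgWDR77-2 (674), 2070 in WDR77KO and 3546 between the sgRNAs of PRMT5, and members called were 1 with sgWDR77-1 (0), 4 in PRMT5KO, 1 in WDR77KO (0) and 2 between the sgRNAs of PRMT5.

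Leaving out 1 library at a time gave these ranges. Genes called ran from 116 to 341 with sgPRMT5-1, 677 to 1449 with sgWDR77-1, 393 to 552 with sgWDR77-2, 1918 to 3075 in PRMT5KO, 743 to 1575 in WDR77KO, 338 to 1651 between the sgRNAs of PRMT5 and 45 to 505 between those of WDR77. Members called ran from 2 to 3 with sgPRMT5-2, 1 to 2 in PRMT5KO, 0 to 1 in WDR77KO, 0 to 2 between the sgRNAs of PRMT5, 0 to 1 between those of WDR77 and 2 to 5 between the knockouts. The cause was not tested.

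The share of called genes that rose moved by over 10 points in 5 comparisons with library totals alone in place of TMM, each time down: 27.1% against 43.8% with sgPRMT5-1, 37.9% against 52.6% with sgPRMT5-2, 34.2% against 52.7% in PRMT5KO, 59.8% against 76.4% between the sgRNAs of WDR77 and 41.0% against 57.8% between the knockouts. With sgWDR77-1 it went up, 40.8% against 37.7%. Replicate numbers showed no pairing of libraries that held across the conditions, so a replicate block was run only as a check. It made MYC pass between the knockouts (-0.16, adjusted p = 0.0493, where alternatives ran from 0.00545 to 0.177). The block moved no count of members or genes by over 1.5 times. Depth limits MYCL and MXD3 most, at under 10 CPM in every library.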
